A study of Mus musculus with 4 samples.

Results

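Perp and the PMP22 family are 5 genes, Perp, Pmp22, Emp1, Emp2 and Emp3, read by 7 probes of the array. Members were the non-control probes whose gene name in the scanner files is one of these symbols, and all 7 probes passed the filter on dim spots. They stand among 20179 genes that kept a probe, of 36499 gene names on the array. The 4 arrays hold neural stem/progenitor cells (NSPCs) of mouse embryos at embryonic day 13.5, grown as neurospheres in medium with EGF and FGF-basic, 2 arrays from wild-type and 2 from Trp53-/- cells. On every array, RNA of cells given 20 μM PJ34, an inhibitor of poly(ADP-ribose) polymerase, was labelled with Cy5 and RNA of untreated cells of the same genotype with Cy3, and the dyes were not swapped. The labels give the strain of all 4 samples as Slc:ICR, while the study bred its Trp53-/- embryos from a heterozygous line obtained elsewhere. The sources used here do not say whether the genotypes were littermates or how long these cells were treated. Each RNA was prepared independently, so n = 2 per genotype.

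PMP22, the EMPs (epithelial membrane proteins) and PERP are small proteins that cross the membrane several times and belong to the claudin superfamily. PMP22 is best known from the compact myelin of peripheral nerve and from growth-arrested cells, the EMPs from epithelia and other cells, and PERP as a p53 target that takes part in apoptosis and in desmosomes. p53, the product of Trp53, is a transcription factor that responds to DNA damage.

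The probes lie at separate places of their transcripts and on 5 chromosomes. In mm9 coordinates as the files give them, the Perp probe (A_51_P317941) lies at chr10:18576697-18576756 on the plus strand and starts at base 1718 of the transcript. Pmp22 has a probe at chr11:62972989-62973048 (A_55_P2040170), read for the gene because it was the brighter one, and a second at chr11:62971862-62971921 (A_55_P2040168). The Emp1 probe (A_55_P1954221) lies at chr6:135333061-135333120. Emp2 has a probe at chr16:10281969-10282028 (A_51_P437240), read for the gene, and a second at chr16:10284525-10284584 (A_55_P2092864). The Emp3 probe (A_51_P446510) lies at chr7:53175332-53175391, on the minus strand like both Emp2 probes. Exon or UTR annotation of mm9 was not used here.

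Because the genes are related, the probes were set against each other, and the nearest pair between genes was the second probe of Pmp22 and the second probe of Emp2, with 35 of 52 aligned bases identical (67.3%). Every other pair reached at most 50% identity. The most alike 30 bases of that pair are shown 5′ to 3′ with the 23 matching bases in capitals, followed by the first 30 bases of each probe read for a gene, in lower case.
Pmp22, second probe: TCAGtGGtaTCATcTAtgTGATCCTGcGGA
Emp2, second probe: TCAGcGGccTCATgTAcaTGATCCTGaGGA
Perp: gaaaatttgggaatgcgtgtctctgaatac
Pmp22: ctctgattttataccaactgtgtggactaa
Emp1: cgcattggtgggttattctagtactgtatt
Emp2: gctgcgttatccaagaagcaagtattagga
Emp3: cagacaaagagtccctgaacctgtggtatg

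Levels are log2 spot intensities after background correction and normalization, and a ratio is the log2 of PJ34 over control, so 1 is a 2-fold increase. All 7 probes were well above background in both channels of the 4 arrays, without a saturated or outlying spot. Between 21508 and 27159 of 55681 probes were well above background per channel. The 10 NSPC markers examined, among them Nes and Sox2, were above background on every array. Trp53 itself read 8.28 and 8.51 in untreated wild-type and 7.56 and 7.82 in untreated Trp53-/- cells, a difference of -0.71 that did not pass (q = 0.0557), and whether its probe lies in the deleted part is not given in the sources used here, so it does not check the labels. One array stands apart. On Trp53-/- replicate 2 the Y-linked genes Eif2s3y and Ddx3y had ratios of 4.22 and 3.12, and Xist had -1.39, against -0.20 to 0.84 for the 3 genes on the other arrays. On Trp53-/- replicate 2 Eif2s3y went from 6.24 in control to 10.46 with PJ34, and Xist from 7.51 to 6.12. PJ34 and the sex of the cells therefore cannot be told apart in the ratios of that array. In untreated cells Eif2s3y was at 8.96 and 8.47 in wild-type and at 6.01 and 6.24 in Trp53-/- cells, so genotype and the sex of the cells cannot be told apart in that comparison. The members' main results are therefore also given without Trp53-/- replicate 2. Without it 0 genes of the whole array had a called difference in level between the genotypes (more than 2-fold, with p and q below 0.05), untreated or treated, so every such call named below, in the lists too, needs that array.

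Perp was chosen for its response to PJ34 in these arrays, so its values are a description without a test. In wild-type cells the raw spot intensity of Perp went from 149 in control to 1075 with PJ34 on replicate 1, and from 179 to 1463 on replicate 2. In Trp53-/- cells it went from 75.0 to 134 on replicate 1 and from 102 to 105 on replicate 2, before the correction for the brighter local background of the PJ34 channel. The log2 ratios were 2.17 and 1.73 in wild-type and -0.16 and -0.52 in Trp53-/- cells. Both wild-type arrays were thus high and both Trp53-/- arrays slightly below 0. The mean in wild-type cells was 1.95 ± 0.31 (SD, n = 2), or 3.86-fold, the third highest ratio of 20179 genes. In Trp53-/- cells the mean was -0.34 ± 0.26 (SD, n = 2), and -0.16 without replicate 2. The wild-type ratio exceeded the Trp53-/- ratio by 2.29 on the log2 scale, and by 2.11 without Trp53-/- replicate 2.

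**Figure D1:**
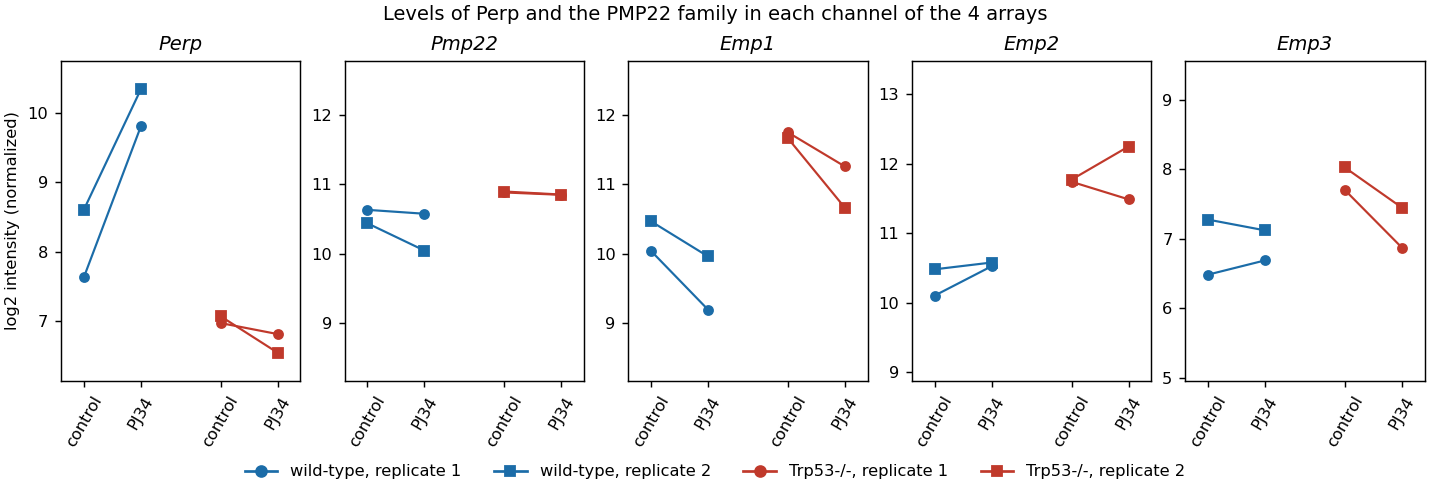
Normalized log2 intensity of each gene in the control and PJ34 channel of each array, with a line per array, blue for wild-type and red for Trp53-/- cells. All panels span the same number of log2 units but start at different levels, since levels of different probes cannot be compared; Perp rises steeply on both wild-type arrays, and Emp1 and Emp2 lie higher on both Trp53-/- arrays.

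The levels of Perp fell into an order of 4 groups whose ranges did not touch. The highest was PJ34-treated wild-type, at 9.80 and 10.33. Untreated wild-type followed at 7.63 and 8.60, then untreated Trp53-/- at 6.97 and 7.07, and PJ34-treated Trp53-/- at 6.81 and 6.55. Treated levels are from Cy5 and untreated ones from Cy3, so PJ34 and a dye bias of the probe cannot be told apart between them. The Trp53-/- spots were dim, at 75.0 and 102 in control over local backgrounds of 25 and 49. With PJ34 they were at 134 and 105 over 58 and 61. The share of all genes with such an order is not given here. The wild-type control arrays differed from each other by nearly as much as their mean (8.12 ± 0.69, SD, n = 2) differed from that of Trp53-/- cells (7.02 ± 0.07). In untreated cells Perp was 2.14-fold lower without p53, a log2 difference of -1.09 that was -1.14 without Trp53-/- replicate 2. In PJ34-treated cells it was 10.5-fold lower, the 14th lowest difference of 20179 genes, at -3.39 and without replicate 2 at -3.25. The 50 units added to every spot before the logarithm shrink the ratios of dim probes, and with 16 units the treated difference of Perp was -3.90.

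The genes whose ratios lay nearest to those of Perp were picked by the root mean square difference over the 4 arrays, among 15406 genes with both channels above background throughout. These are the arrays on which Perp was chosen, so the values are a description. Svop, which encodes a synaptic vesicle protein, was nearest at 0.32. Fas, the death receptor, followed at 0.35 and Cdkn1a, the CDK inhibitor p21, at 0.36. Rln1, a relaxin, was at 0.38 and Celf5, an RNA-binding protein, at 0.40. All 5 had ratios above 1.2 on both wild-type arrays and at most 0.01 on both Trp53-/- arrays, and 10 genes in all lay within 0.5 of Perp.

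**Figure D2:**
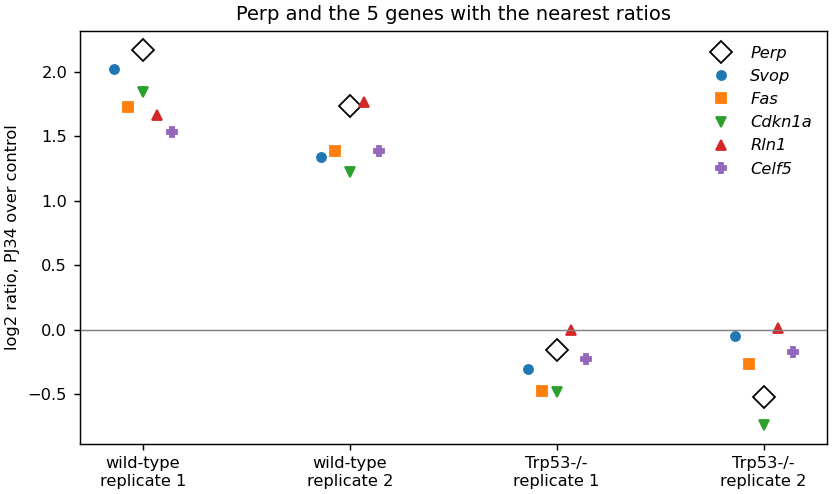
Log2 ratio of PJ34 over control on each of the 4 arrays for Perp (open diamonds) and the 5 genes with the smallest root mean square difference from it. On the wild-type arrays Perp lies at 2.17 and 1.73, and on the Trp53-/- arrays at -0.16 and -0.52.

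Perp is one of the p53 effectors of cell death, and 17 others were listed, all of which kept a probe. Fas, Pidd1, Tnfrsf10b, Pmaip1 and Bbc3 among them were picked by the study on these arrays, so the counts are no independent evidence of a direction. With PJ34 in wild-type cells 6 of 17 were called higher, against 0.287% of all genes, and 0 lower, with a median of 0.70 against 0.03 over all genes. The 6 were Trp53inp1 (1.71), Pmaip1 (1.69), Tnfrsf10b (1.58), Fas (1.55), Bbc3 (1.44) and Dapk1 (1.33). In Trp53-/- cells 0 of 17 were called in either direction, with a median of 0.09, where 0.362% of all genes were called. In untreated cells 8 of 17 were called lower in Trp53-/-, against 1.94% of all genes, with a median of -0.98 against -0.0034. The largest of these differences were those of Trp53inp1 (-2.61) and Tnfrsf10b (-2.16). Without Trp53-/- replicate 2 the untreated median was -0.96 and 0 of 17 were called.

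The other 4 members were not chosen by their own values and were tested with limma in a fit across all genes. The study's criteria define a call here: more than 2-fold, with p and Storey's q each below 0.05. With PJ34 in wild-type cells 0 of the 4 were called, against 0.501% of all genes. The count without a limit on the fold change was 1 of 4, Emp1, which was lower, as were 11.3% of all genes at that looser rule. In Trp53-/- cells 0 of 4 were called, against the same 0.362% of all genes. Without the fold limit Emp1 and Emp3 were lower, 2 of 4 against 10.6% of all genes. For the difference between the genotypes 0 of 4 were called, against 0.476% of all genes.

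**Figure D3:**
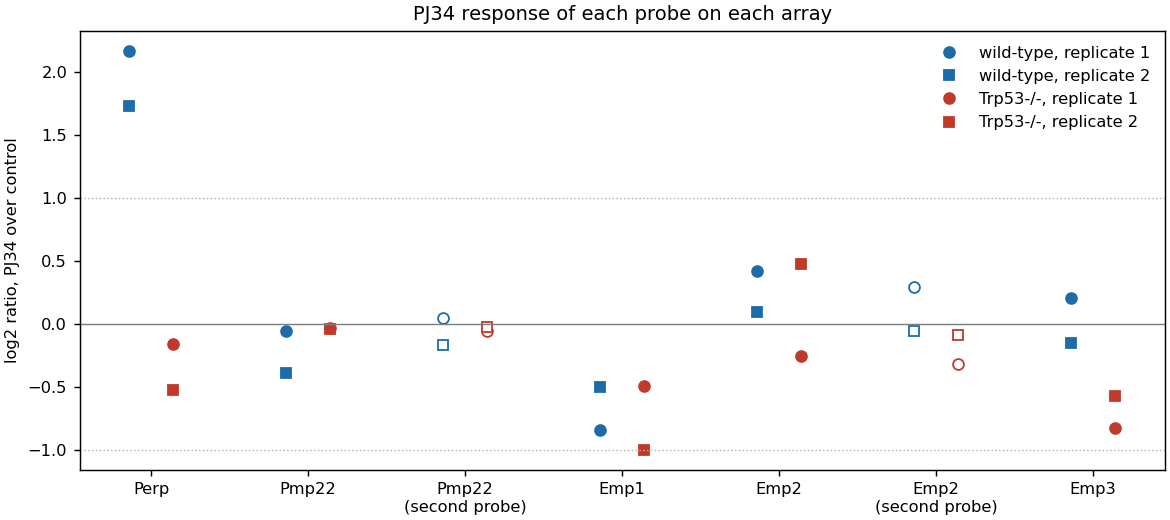
Log2 ratio of PJ34 over control for each of the 7 probes on each array, filled for the probe read for a gene and open for a second probe. Dotted lines mark 2-fold. Only the Perp probe on the wild-type arrays lies above the upper line, at 2.17 and 1.73, and Emp1 on Trp53-/- replicate 2 lies on the lower line.

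Emp1, whose protein is found in epithelia and at contacts with integrins, was lower with PJ34 on all 4 arrays. Its ratios were -0.84 and -0.51 in wild-type and -0.49 and -1.0004 in Trp53-/- cells, so the genotypes overlapped. The wild-type mean was -0.67 (standard error 0.13, 95% interval -0.96 to -0.39, q = 0.00305), a 1.60-fold decrease. The Trp53-/- mean was -0.75 (interval -1.03 to -0.46, q = 0.00247), or 1.68-fold lower, but without replicate 2 it was -0.49 with q = 0.0567. The ratios did not differ detectably between genotypes, with a difference of 0.07 and an interval from -0.34 to 0.48 (q = 0.665). With PJ34 in Cy5 on every array, PJ34 and a dye bias of the Emp1 probe cannot be told apart in these decreases. The q was below 0.05 in 14 of 16 alternative analyses in wild-type and in 13 of 16 in Trp53-/- cells. When each array was centred on its median instead, Emp1 stood at -0.07 in wild-type and, with the sign turned, at 0.13 in Trp53-/- cells, while the median of all genes was at 0.46 and 0.63. Relative to those medians Emp1 was at -0.53 and -0.50, and Pmp22, which was then at 0.39 and 0.81, at -0.07 and 0.19.

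Emp3, an EMP also known from blood cells and gliomas, had different ratios in the genotypes. They were 0.20 and -0.15 in wild-type and -0.83 and -0.58 in Trp53-/- cells. The wild-type mean of 0.03 could not be told from 0 (interval -0.22 to 0.27, q = 0.462). In Trp53-/- cells the mean was -0.70 (interval -0.95 to -0.46, q = 0.00173), a 1.63-fold decrease, and without replicate 2 it was -0.83 with q = 0.00563. With median centring it was -0.25 (q = 0.0557) and with the scanner's own log ratios -1.17 (q = 0.0609). The difference between genotypes was 0.73 (standard error 0.16, interval 0.38 to 1.08, q = 0.0416), past the q limit and under 2-fold. In that direction 1.29% of all genes passed the limits on p and q. It stayed positive in 16 of 16 alternative analyses, and q was below 0.05 in 7 of them. Without Trp53-/- replicate 2 it was 0.85 with q = 0.0505. The Emp3 spots were dim, with raw control intensities between 59.6 and 186.

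Emp2 and Pmp22 did not pass in any of the 3 comparisons of ratios with the main processing. Over 16 alternative analyses q of Emp2 was below 0.05 in 2 in wild-type and in 2 in Trp53-/- cells. For Pmp22 it was below 0.05 in 3 and in 1, and for the difference between genotypes in 0 for both genes. Emp2, a partner of integrins in epithelia, had ratios of 0.42 and 0.10 in wild-type and -0.25 and 0.48 in Trp53-/- cells, so the 2 Trp53-/- arrays lay on opposite sides of 0. Its means were 0.26 (interval -0.08 to 0.60, q = 0.138) and 0.11 (interval -0.23 to 0.45, q = 0.321), the latter -0.25 without replicate 2 (q = 0.270) and 0.48 without replicate 1 (q = 0.0413). The second Emp2 probe had ratios of 0.29 and -0.05 in wild-type and -0.32 and -0.09 in Trp53-/- cells. Pmp22 had ratios of -0.06 and -0.39 in wild-type and -0.03 and -0.04 in Trp53-/- cells, with means of -0.22 (interval -0.45 to 0.0018, q = 0.0813) and -0.04 (interval -0.26 to 0.19, q = 0.406). The second Pmp22 probe lay between -0.17 and 0.04 on the 4 arrays. Neither interval of Pmp22 reaches a 2-fold change. With median centring Emp2 was at 0.88 (q = 6.80e-05) and 1.02 (q = 3.94e-06) and Pmp22 at 0.39 (q = 0.0180) and 0.81 (q = 3.73e-05). Relative to the median of all genes at that centring, Emp2 was at 0.42 and 0.39.

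**Figure D4:**
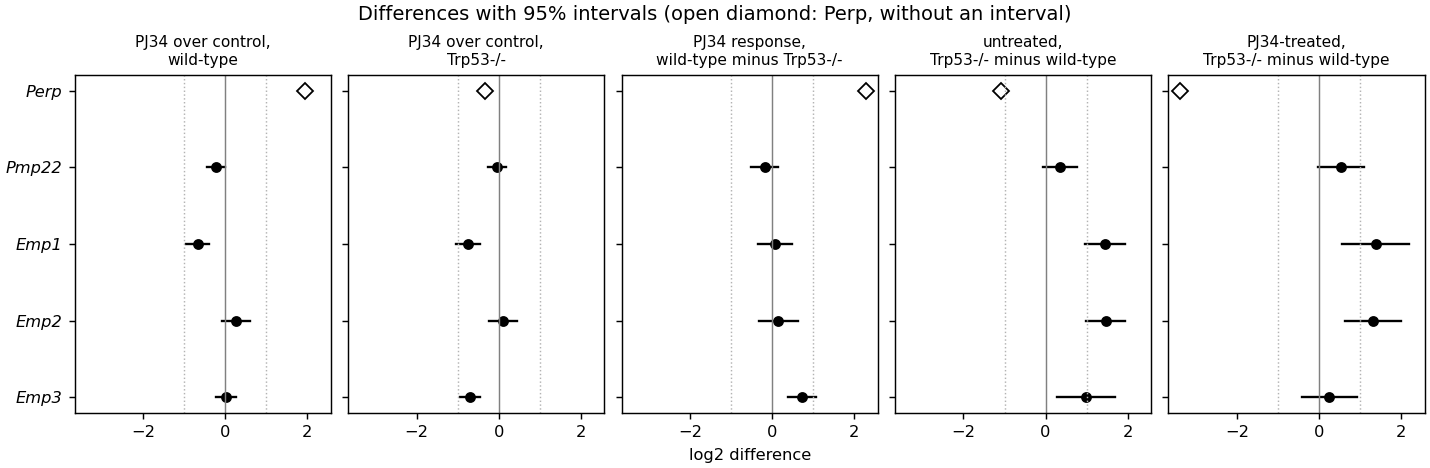
Log2 differences of the 5 genes in the 5 comparisons, with 95% intervals from limma for the 4 tested members and an open diamond without an interval for Perp. Dotted lines mark 2-fold. In untreated cells Emp1 and Emp2 lie at 1.45 and 1.46, right of the line, while Perp lies at -1.09.

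Emp1 and Emp2 parted from Perp in untreated cells. All 4 other members had levels in the Trp53-/- arrays above those in the wild-type arrays without overlap at the probe read for the gene, a pattern that 27.2% of all genes showed, while Perp was lower without overlap, as were 28.9%. Of the 4, Emp1 and Emp2 were called higher in Trp53-/- cells, where 3.79% of all genes were called and 1.85% called higher. In bulk RNA of this kind, fewer cells of a type and less RNA per cell cannot be told apart.

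Emp2 was at 10.11 and 10.48 in untreated wild-type and at 11.74 and 11.77 in untreated Trp53-/- cells. The difference was 1.46 (standard error 0.19, interval 0.99 to 1.93, q = 0.0173), or 2.76-fold. The second Emp2 probe, at 8.18 and 8.32 against 9.91 and 10.44, gave 1.92 with q = 0.0147 in the fit across probes. Emp1 was at 10.04 and 10.47 in wild-type and at 11.75 and 11.66 in Trp53-/- cells, a difference of 1.45 (interval 0.96 to 1.94, q = 0.0192), or 2.73-fold. At the probe read for each gene the Trp53-/- arrays lay within 0.1 of each other, and the gap to the nearest wild-type array was above 1.

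These calls rest on having both Trp53-/- arrays. Without Trp53-/- replicate 2 the differences were 1.49 for Emp1 and 1.45 for Emp2, with q = 0.351 and 0.352. Without replicate 1 they were 1.41 and 1.48, with q = 0.210 and 0.192. In those fits 0 genes of the whole array were called, while 1493 and 2169 had an unadjusted limma p below 0.05. Without wild-type replicate 1 or 2 both genes were called, and the count of called genes rose from 765 to 1098 and 1548.

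Emp3 was at 6.48 and 7.28 in untreated wild-type and at 7.70 and 8.03 in untreated Trp53-/- cells. The difference of 0.98 (interval 0.28 to 1.69) did not pass, with q = 0.0703, and it ran from 0.59 without wild-type replicate 1 (q = 0.0134) to 1.38 without wild-type replicate 2 (q = 7.53e-05). Without Trp53-/- replicate 2 it was 0.82 with q = 0.746. Pmp22 was at 10.63 and 10.44 in wild-type and at 10.88 and 10.90 in Trp53-/- cells, a difference of 0.35 that did not pass (q = 0.156). Its second probe pointed the other way, at 9.34 and 9.18 against 9.22 and 8.89, with a difference of -0.20 (q = 0.332), so the probes disagree on the direction.

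**Figure D5:**
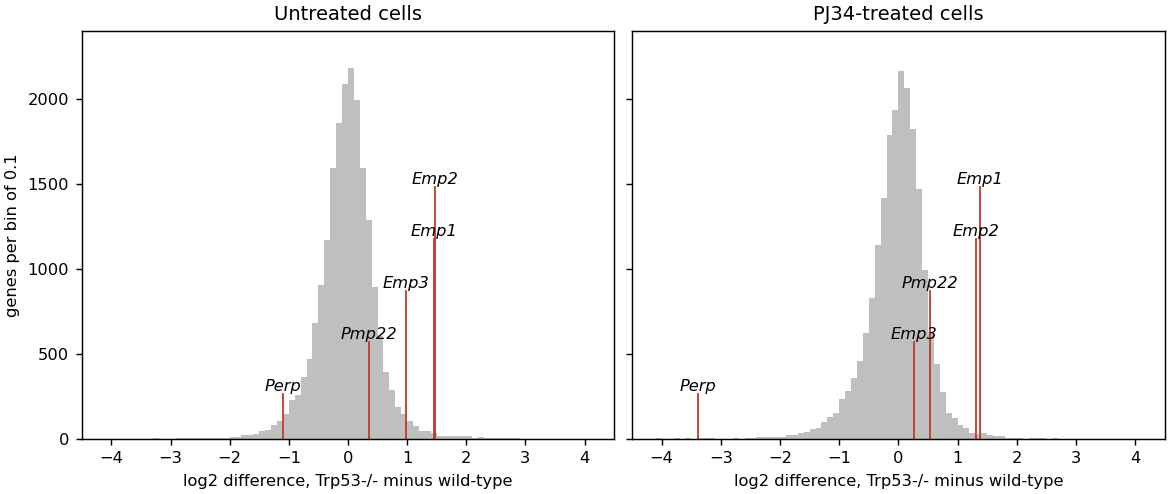
Distribution of the log2 difference of Trp53-/- minus wild-type over 20179 genes in bins of 0.1, in untreated and in PJ34-treated cells, with the 5 genes marked by red lines whose heights only separate the names. In untreated cells Emp1 and Emp2 lie at 1.45 and 1.46 in the right tail, and in treated cells Perp lies at -3.39 in the left tail.

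After PJ34, 0 of the 4 members were called between the genotypes, where 2.85% of all genes were called. Emp2 was at 10.53 and 10.58 in treated wild-type and at 11.49 and 12.25 in treated Trp53-/- cells. The difference of 1.31 (interval 0.62 to 2.00) just missed the limit with q = 0.0510, and the second probe, with 1.60 and q = 0.0443 in the fit across probes, passed it. Emp1 was at 9.20 and 9.96 in wild-type and at 11.26 and 10.66 in Trp53-/- cells, a difference of 1.38 (interval 0.56 to 2.20, q = 0.0595). With the replicate number as a block both were called, with q = 0.0136 for Emp1 and 0.00582 for Emp2. Over 15 alternative analyses q was below 0.05 in 6 for Emp1 and in 10 for Emp2. Pmp22 differed by 0.54 (q = 0.136) and Emp3 by 0.26 (q = 0.335). The second Pmp22 probe again pointed the other way, at -0.18 (q = 0.354 in the fit across probes), and its levels overlapped. At the probe read for the gene, the levels did not overlap in 3 of 4 members, Pmp22, Emp1 and Emp2, higher in Trp53-/- cells as in 28% of all genes. Emp3, at 6.69 and 7.12 against 6.87 and 7.45, overlapped. Without Trp53-/- replicate 2 the differences were 1.68 for Emp1, 0.93 for Emp2, 0.54 for Pmp22 and -0.03 for Emp3, and 0 genes of the array were called, with 1365 at an unadjusted limma p below 0.05.

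The order of the 4 groups was therefore not the same for each gene. As for Perp, each order sets treated levels from Cy5 beside untreated levels from Cy3. For Emp1 it ran from untreated Trp53-/- (11.70 ± 0.06, SD, n = 2) over treated Trp53-/- (10.96 ± 0.42) and untreated wild-type (10.25 ± 0.30) to treated wild-type (9.58 ± 0.54), and no neighbouring groups overlapped. For Emp2 both Trp53-/- groups (11.87 ± 0.54 treated, 11.76 ± 0.02 untreated) overlapped and lay above both wild-type groups (10.55 ± 0.04 treated, 10.29 ± 0.27 untreated). For Emp3 untreated Trp53-/- cells were highest (7.86 ± 0.23), and the other groups, at 7.16 ± 0.41, 6.90 ± 0.31 and 6.88 ± 0.56, overlapped with their neighbours. For Pmp22, at the probe read for the gene, the Trp53-/- groups (10.89 ± 0.0096 untreated, 10.85 ± 0.0027 treated) lay above untreated wild-type (10.54 ± 0.14), which overlapped with treated wild-type (10.31 ± 0.37). At the second Pmp22 probe the levels of the genotypes overlapped.

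The genes that work with the family were described by lists. Of 10 partners of PMP22 and the EMPs, mostly integrins, 7 kept a probe and 1 was called, P2rx7, which encodes an ATP-gated channel. P2rx7 was 2.04 higher in untreated and 1.37 higher in treated Trp53-/- cells, where 3.79% and 2.85% of all genes were called. The list's untreated median was 0.26. The partner integrins Itga6 and Itgb1 were at 0.52 and 0.40 in untreated cells and were not called. Of 16 desmosome components 6 kept a probe and 0 were called in any comparison, where 0.362% to 3.79% of all genes were called. Their medians lay between -0.05 and 0.18. Dsp, Jup and Dsg2 kept none. Of 33 relatives in the claudin superfamily 18 kept a probe. In untreated cells Cldn11, the claudin of oligodendrocytes, was called higher in Trp53-/- (2.17) and Nkg7 lower (-1.19), against 1.85% and 1.94% of all genes. Both were also called in treated cells. With PJ34 the single call among the relatives was Cldn11 in Trp53-/- cells, at -1.08, where 0.273% of all genes were called lower. The PJ34 responses of Cldn11 (0.85, q = 0.0355) and P2rx7 (0.67, q = 0.0365) differed between the genotypes by p and q, under 2-fold. In that direction 1.29% of all genes passed.

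Some myelin genes were higher in untreated Trp53-/- cells, like Emp1 and Emp2. Of 10 compact myelin genes 9 kept a probe, and 4 of 9 were called higher in untreated Trp53-/- cells, against 1.85% of all genes, among them Mbp (1.98), Mag (1.58) and Pllp (1.14), with a median of 1.055. Gjb1 was lower (-0.91, q = 0.0407) without reaching 2-fold, and Mog was at -0.41 and did not pass (q = 0.118). The summed level of the list was 2622 and 4165 in untreated wild-type and 10020 and 10622 in untreated Trp53-/- cells, and without Trp53-/- replicate 2 the calls went to 0 of 9 with a median of 1.053. With PJ34 in Trp53-/- cells 2 of 9 were called lower, against 0.273% of all genes, among them Mag (-1.36), with a median of -0.36. Emp1 and Emp2 were at -0.75 and 0.11 in the same comparison. In wild-type cells 0 of 9 were called with PJ34, against 0.501% of all genes, with a median of 0.0075. Without the fold limit 2 of 9 were lower there, against 11.3% of all genes, and 7 of 9 in Trp53-/- cells, against 10.6%. Pllp was at -0.85 in wild-type and at -0.86 in Trp53-/- cells. Mag was also called in the difference between the genotypes (1.07), and without Trp53-/- replicate 2 the count there was 0 of 9. Among all genes 0.476% were called in the difference between the genotypes. Of the neural crest and Schwann markers 4 of 8 kept a probe, with Foxd3, Erbb3 and Tfap2a among those that did not. Of these 4, 1, Egr2, was called higher in untreated Trp53-/- cells (1.09), against 1.85% of all genes.

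Markers of other cells that the cultures could hold were examined beside these values. Summed levels are those of untreated cells, wild-type first. They add intensities before the logarithm, so the brightest genes weigh most in them. Of 8 oligodendrocyte markers 2 were called higher in untreated Trp53-/- cells, against 1.85% of all genes, both also on the myelin list and Mbp among them. Olig1 and Olig2 were at -0.03 and 0.08. Pdgfra was lower (-0.71, q = 0.0497) without reaching 2-fold, while 6 of 8 were above 0. The summed level ranged from 41413 to 43366 in wild-type and from 45543 to 52283 in Trp53-/- cells. With PJ34 in Trp53-/- cells all 8 were below 0, with a median of -0.34, and 6 of 8 were lower by p and q, against 10.6% of all genes. The median in wild-type cells was 0.02, and 3 of 8 were lower by p and q, against 11.3% of all genes. Their response differed between the genotypes for 1 of 8, Cspg4 (0.95, q = 0.0334), past the limits on p and q as for Emp3. In that direction 1.29% of all genes passed. Of 6 astrocyte markers 2 were called higher in untreated Trp53-/- cells, Gfap (2.38) and S100b (1.89), against 1.85% of all genes. In all 4 of 6 were above 0, while Aldh1l1 and Gja1 were at -0.58 and -0.10 and did not pass. S100b also had a PJ34 response that differed between the genotypes (0.69, q = 0.0336), in the direction in which 1.29% of all genes passed. The Gfap ratios were -0.0002 on Trp53-/- replicate 1 and 1.62 on replicate 2. The astrocyte sums were 30620 to 33481 against 36313 to 39019. Of 8 neuron markers 1 was called higher, Rbfox3 (1.24), against 1.85% of all genes. Syp (-0.80, q = 0.0474) and Snap25 (-0.73, q = 0.0463) were lower without reaching 2-fold, while 5 of 8 were above 0. The neuron sums were 9334 to 11499 against 7592 to 7673. The NSPC list had 0 of 10 called in untreated cells and 1 lower in treated cells, Msi1 (-1.37), where 3.79% and 2.85% of all genes were called. Its summed untreated level was 134337 to 172874 against 141612 to 143571.

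Lists of cells in which the EMPs or PERP are abundant were mostly dim. Their calls in untreated cells stand beside 3.79% of all genes, 1.85% higher and 1.94% lower in Trp53-/- cells. Of 8 epithelial markers 3 kept a probe and 0 were called, with Epcam, Cdh1, Krt8 and Krt18 not kept and sums of 1852 to 2244 against 1496 to 1689. Of 8 meningeal and fibroblast markers 2 kept a probe and 0 were called, with Col1a1, Col3a1 and Dcn not kept and sums of 473 to 515 against 567 to 583. Of 7 endothelial markers 3 kept a probe, with Flt1 called higher (2.62) and Kdr lower (-1.34), Cdh5 and Cldn5 not kept, and sums of 8096 to 8516 against 3830 to 4164. Most of these sums is Kdr, at 13.02 and 12.94 in untreated wild-type cells, where Flt1 was at 6.82 and 6.86. Of 6 microglia markers 2 kept a probe and 0 were called, with Aif1 and Cx3cr1 not kept and sums of 5865 to 6996 against 3629 to 4249. The part of any of these lists in the levels of Emp1, Emp2 or Emp3 was not tested.

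Promoter windows of RefSeq (GRCm38.p6), which span the start of each gene, were searched on both strands for the p53 half-site. It was found in 2745 of 32851 windows (8.36%). Of the members, 0 of 4 windows of Pmp22, 0 of 2 of Emp1 and 0 of 1 of Emp2 held it, and both windows of Emp3 did. The Emp3 matches are shown in capitals with 10 bases on each side, since Emp3 was the tested member whose PJ34 ratio passed the limits on p and q between the genotypes. They lie on the minus strand of chromosome 7, in the windows chr7:45921377-45921676 and chr7:45920800-45921099, at -139 and -212 from the start site. Perp is not among the windows. A match of letters is a description and not a binding site.
Emp3, first window: ggaggtcccaGAACATGCCTtctgtgtgac
Emp3, second window: gctgtctatgAGACTTGTCCcaacagagcc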

How the data were processed

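The authors deposited the output of Agilent Feature Extraction 10.7.3.1 (the version in the submitters' processing notes) for 4 two-colour arrays (SurePrint G3 Mouse GE). The intensity values that the authors deposited, mean spot and median local background per colour, were used uncorrected. The log10 ratios that the authors deposited were used, as log2, only as an alternative. A table with 4 per-sample columns was not used here, since its numbered names match no array. Gene names come from the files, updated through RefSeq accessions for 26300 of 55681 probes (47.2%).

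Spots were corrected with limma's normexp (limma 3.58.1, R 4.3.3; offset 50) and loess within arrays, giving log2 ratios of Cy5 (PJ34) over Cy3 (control). Levels were also quantile normalized between arrays on the mean intensity. Kept probes had, for a genotype, a channel well above background on each of its arrays (26967 probes, 48.4%), and a gene was read from its brightest kept probe. Dyes were not swapped, so dye bias and PJ34 cannot be told apart within a genotype, nor can slide and array, since each array had its own slide.

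limma's lmFit and eBayes were run over all 4 arrays (2 residual degrees of freedom; 10.3 after moderation for ratios, 6.16 for untreated and 5.59 for treated levels), with Storey's q over lambda from 0.05 to 0.95. A call needed p and q below 0.05 and more than 2-fold. The fit was tested on simulated data. Deviations of samples with the same replicate number correlated at -0.18 for ratios, 0.08 for untreated and 0.25 for treated levels. No label says what the numbers share and there are 2 pairs, so they were not taken to pair samples. Named genes were the members, Trp53, the 5 genes nearest to Perp, up to 4 called genes per list, the brightest and dimmest markers and 3 sex-linked genes. A few others in the lists were named after their values were seen. The members and the 14 lists were chosen with earlier results of these data known. Some members of the lists are counted but not reported here by name.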

Additional observations from a re-analysis of the deposited data

Results flagged for a closer look

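The PJ34 response of Perp was 2.17 and 1.73 on the wild-type arrays and -0.16 and -0.52 on the Trp53-/- arrays. In Trp53-/- cells its spots were dim and the dyes were not swapped. Its mean there ran from -0.89 to -0.13 over 16 alternative analyses. The wild-type mean exceeded the Trp53-/- mean by 2.29 on the log2 scale, and the difference was not tested because Perp was chosen for it. The PJ34 response of Emp3 differed between the genotypes by 0.73 on the log2 scale in limma's fit (q = 0.0416), with ratios of 0.20 and -0.15 in wild-type and -0.83 and -0.58 in Trp53-/- cells. Over 16 alternative analyses its q ran from 0.00147 to 0.587.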

How the results depend on the processing

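Untreated differences kept their sign for all 5 genes in 15 alternatives each, where the lowest for Pmp22 was 0.07. The second Pmp22 probe, which was not read alone in these, was at -0.20. The response of Perp in wild-type cells was 2.51 with median centring and 2.34 with the scanner's log ratios. With the latter its response in Trp53-/- cells was -0.89 and the difference between genotypes 3.23, and with an offset of 16 the treated difference was -3.90. With median centring Emp1 in Trp53-/- cells turned to 0.13, and 1 of the 4 tested members was called there (Emp2, 1.02, at q = 3.94e-06). That centring moved the median of all genes to 0.46 in wild-type and 0.63 in Trp53-/- cells and the calls from 58 higher and 43 lower to 1179 and 2, and from 18 and 55 to 3404 and 4. In treated cells the count of 0 called members became 1 without background correction, with median centring, with quantile normalization and with the mean of a gene's probes, and 2 with an offset of 16, the strict filter, an intensity trend or the replicate block. Without the fold limit the counts were 1 in wild-type, 2 in Trp53-/- cells and 1 for the difference. When 1 array was left out, the count of called members ran from 0 to 1 for PJ34 in Trp53-/- cells, where Emp1 was called without Trp53-/- replicate 1, from 0 to 3 in untreated and from 0 to 2 in treated cells, and stayed at 0 in the other comparisons. The replicate block changed no count of called members but that of 2 in treated cells. A crossed block, chosen after seeing the data, gave 2 called members in untreated and 0 in treated cells. The cause was not tested. The number of arrays limits the precision, and Emp3 and, without p53, Perp were dim.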
